A study of Caenorhabditis elegans with 8 samples.

Results

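The genes described here carry glutamate out of and back into cells and sense it through G proteins in sorted neurons of Caenorhabditis elegans. They were chosen by name, and all 8 of the 8 names were among the 46748 genes of the deposited count table: eat-4, glt-1, glt-3, glt-4, glt-5, mgl-1, mgl-2 and mgl-3. The RNA came from untreated worms of strain OH10689. These carry the transgene otIs355 on chromosome IV, written rab-3(prom1)::2xNLS-TagRFP, so that red protein collects in the nuclei of cells in which this rab-3 promoter is active. Red cells were sorted by fluorescence into Trizol LS, so each RNA sample is a mixture of all cells that passed the sort, and the labels give neither the stage of the worms nor the number of cells. There were 4 RNA samples, and part of each went into a library made with SoLo Ovation and part into one made with SMARTseq V4 and Nextera XT, giving 4 SoLo libraries and 4 SMARTseq libraries numbered by RNA sample. The comparison asks which genes each kit measures at a higher or lower level in the same RNA. In bulk RNA, fewer cells of a type and less RNA per cell cannot be told apart.

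Glutamate is a major excitatory transmitter of the worm nervous system. It is loaded into synaptic vesicles by the vesicular transporter EAT-4, acts on ionotropic receptors, chloride channels and the G protein-coupled MGL receptors, and is taken up again by sodium-coupled GLT transporters of the plasma membrane. As background on the kits, SMARTseq V4 primes cDNA synthesis on the poly(A) tail, whereas SoLo does not depend on the tail and removes ribosomal RNA after library synthesis.

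The libraries held 2354681 to 3454199 counts in SoLo and 4510927 to 7099497 counts in SMARTseq. RNA sample 1 stood apart from the other RNA samples in both kits. The chi-square statistic of the counts per degree of freedom was 29.75 to 32.51 for SoLo pairs that included library 1 and 2.29 to 3.42 for the other SoLo pairs, and it was 87.0 to 98.1 for SMARTseq pairs with library 1 and 9.43 to 11.6 for the other SMARTseq pairs. No pair of libraries differed by as little as sampling noise. The sum of 17 pan-neuronal markers was 12000 to 15100 CPM (counts scaled to the TMM-adjusted library total) in SoLo and 7680 to 10400 CPM with SMARTseq. None of the 17 was at 0. The test below called 13 of them higher and 1 (ric-19) lower in SoLo, against 20% and 27.6% of all genes tested. The largest, egl-3, had 6510 CPM with SoLo and 4650 CPM with SMARTseq and was not called. Markers of other cells were also present. The sum of 10 body wall muscle markers was 7460 to 9300 CPM with SoLo and 14400 to 19300 CPM with SMARTseq, most of it from unc-54 and act-4. They went opposite ways: unc-54 had 6250 CPM with SoLo and 3890 with SMARTseq, and act-4 had 1620 and 11600. In the test below, 4 of the 10 were called higher and 4 lower in SoLo, against 20% and 27.6% of all genes tested. The sum of 10 hypodermis and cuticle markers was 152 to 308 CPM with SoLo and 339 to 2900 CPM with SMARTseq. No member of either list was at 0.

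Of the 8 genes, 6 passed the filter on low counts. Among these, 4 (eat-4, glt-4, mgl-2 and mgl-3) were called higher in SoLo, 1 (mgl-1) was called lower in SoLo and glt-1 was not called. Over all 11378 genes tested by edgeR's quasi-likelihood test, 47.6% were called in either direction, 20% higher and 27.6% lower in SoLo. The same 5 genes had no overlap between the kits, whereas over all tested genes 21.2% had every SoLo library above every SMARTseq library and 25.0% had every SoLo library below. The remaining pair, glt-3 and glt-5, had too few reads to be tested. Fold changes below are log2(SoLo/SMARTseq) ± SE with Benjamini-Hochberg adjusted p over all genes tested. Separate cultures or sorts are named in no label. The p-values therefore reflect only how far these samples spread, which could be technical. Without RNA sample 1 the same 4 genes were called higher and the same 1 lower, with values of 1.03 for eat-4, 4.90 for glt-4, 1.85 for mgl-2, 0.66 for mgl-3 and -0.95 for mgl-1. That setting called 3005 genes higher and 3691 lower of 11479 tested, against 2276 and 3139 in the main fit, so it is not a stricter check.

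**Figure D1:**
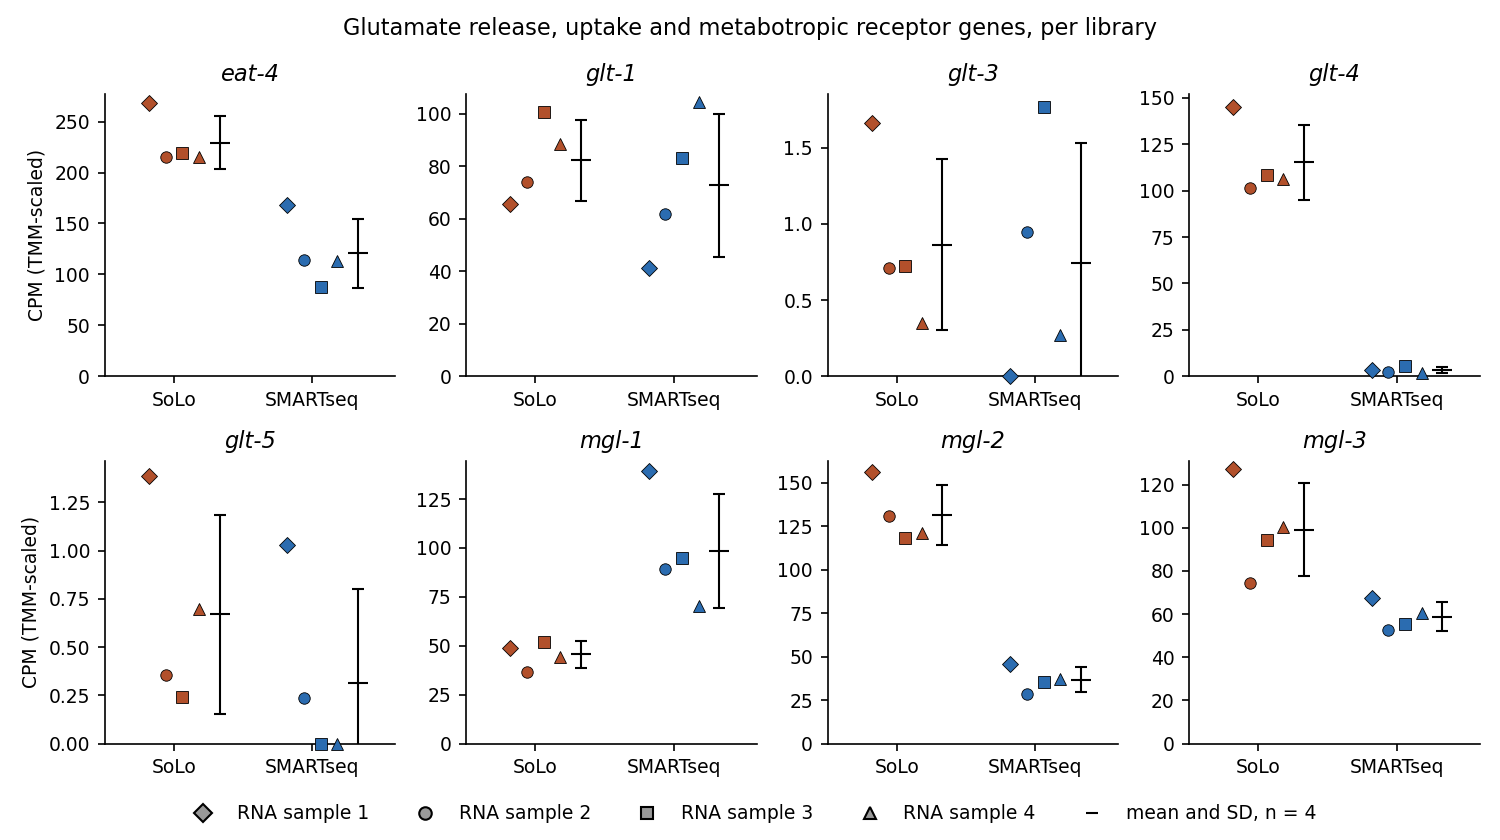
TMM-scaled CPM (y axis) of each of the 8 genes in the 4 SoLo and the 4 SMARTseq libraries, with marker shape giving the RNA sample and the bar giving mean and SD. The SoLo values of glt-4 lie between 102 and 145 CPM, above SMARTseq values of 1.62 to 5.65 CPM, and mgl-1 is the gene with all SoLo values below all SMARTseq values.

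The vesicular glutamate transporter gene eat-4, which marks glutamatergic neurons, was higher in SoLo. It is annotated on WBcel235 at chromosome III, 9136887 to 9141827, on the plus strand, with 2218 bases of exon. By RNA sample, eat-4 had 269, 215, 219.6 and 215 CPM with SoLo and 168, 114, 87.4 and 113 CPM with SMARTseq. Every SoLo library lay above every SMARTseq library, and library 1 was the highest in each kit. The log2 fold change was 0.93 ± 0.21 (edgeR adjusted p = 0.00474), with SoLo higher in 4 of 4 RNA samples by 0.68 to 1.33 on the log2 scale. When RNA samples 2 to 4 were summed into 1 library per kit, eat-4 had a value of 0.97 and was not called (edgeR adjusted p = 0.145). With the replicate block in that fit it was 1.002 and called (edgeR adjusted p = 0.000191). The blocked fit had only 2 libraries a kit and called 3310 genes higher and 3758 lower, more than the main fit, so it is not a stricter check. Of the eat-4 exon bases, 5.37% lie under ZK512.2 and ZK512.7 on the opposite strand, and both had fewer reads than eat-4 in each kit.

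The uptake gene glt-4, which encodes a plasma membrane glutamate transporter expressed in neurons, showed the largest kit difference of the 8 genes. It lies at chromosome X, 6403422 to 6408411, on the plus strand. In RNA samples 1 to 4, glt-4 had 145, 102, 108 and 106 CPM with SoLo and 3.42, 2.36, 5.65 and 1.62 CPM with SMARTseq. The lowest SoLo library was 18 times the highest SMARTseq library. The read counts behind these values were 524, 285, 448 and 304 in SoLo and only 20, 10, 32 and 6 in SMARTseq, where the coefficient of variation was 53.8% against 24.3% from counting alone. The log2 fold change was 5.10 ± 0.37 (edgeR adjusted p = 4.45e-06), the 173rd highest of the 11378 tested. It was called in each alternative that gave a test, with values between 4.85 and 5.63. After subtraction of the length trend, which gives no test, it was 4.76, and 4.69 with the replicate block.

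The annotation of glt-4 holds a pair of transcripts that end at different places. Both have a last exon that starts at 6406688, which runs to 6408411 in T22E5.2a.1 and to 6406981 in T22E5.2b.1, and the transcripts measure 3116 and 1761 bases. The annotated 3' untranslated sequence of glt-4 covered 1746 bases, more than in 99.3% of the 10252 tested protein-coding genes that have one. For the other 7 genes it covered 112 bases (mgl-1) to 497 bases (mgl-2). Across these 10252 genes, the 334 with at least 1000 bases had a median log2 fold change of 0.97 and 56.3% were called higher in SoLo. The 9918 with fewer had a median of -0.02 and 17.26% were called higher. The fold change was at least that of glt-4 in 5 of the 334, glt-4 included, and in 14 of the 9918. Most of the 173 tested genes that reach this fold change lie outside the 10252, having no such annotation or not being protein-coding. The part of this length in the value of glt-4 was not tested. No exon base of glt-4 is shared with another gene. The nearest gene downstream, the muscle troponin T gene mup-2, ends 59 bases away on the opposite strand and had less signal than glt-4 in SoLo, with 35.5 ± 8.46 CPM with SoLo and 42.0 ± 9.36 CPM with SMARTseq (SD, n = 4 each).

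The other well-covered transporter gene, glt-1, known from muscle and hypodermis, did not differ between the kits beyond its error. It lies at chromosome X, 3496026 to 3499169, plus strand, and shares no exon base with another gene. Over RNA samples 1 to 4, glt-1 had 65.7, 73.8, 100.7 and 88.4 CPM with SoLo and 41.25, 61.9, 83.2 and 104.5 CPM with SMARTseq. The kits overlapped, and library 1 was the lowest in both. The log2 fold change was 0.18 ± 0.28 (edgeR adjusted p = 0.636), 0.06 without RNA sample 1 and -0.05 without SMARTseq library 1. Of 8 marker sums, those of muscle, hypodermis and germline were likewise lowest in library 1 of each kit, and those of neurons, intestine, excretory canal and pharynx were highest there. Their part in the level of glt-1 was not tested.

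The remaining transporter genes were close to the limit of these libraries. In RNA samples 1 to 4, glt-3 (chromosome IV, 10130257 to 10133283), known from the excretory canal cell and pharynx, had 6, 2, 3 and 1 reads in SoLo and 0, 4, 10 and 1 reads in SMARTseq. The gene glt-5 (chromosome II, 9706481 to 9708885) had 5, 1, 1 and 2 reads in SoLo and 6, 1, 0 and 0 reads in SMARTseq. A count of 0 allows up to 3 reads, which is 0.513 CPM for glt-3 in SMARTseq library 1, and 0.530 and 0.808 CPM for glt-5 in SMARTseq libraries 3 and 4. Summed over libraries and scaled to library size, the read ratio of SoLo over SMARTseq was 1.16 for glt-3 (exact 95% interval 0.496 to 2.65) and 1.86 for glt-5 (0.618 to 5.89), so that a difference between the kits was not detectable at this depth. These intervals and limits cover counting error only. Listed markers of the tissues in which glt-3 is known had reads. The sums were 211 to 323 CPM with SoLo and 417 to 537 CPM with SMARTseq for 10 excretory canal markers. For 10 pharynx markers they were 180 to 283 CPM with SoLo and 71.4 to 99.4 CPM with SMARTseq. Single excretory markers went both ways: ceh-6 had 42.3 CPM with SoLo and 162 CPM with SMARTseq, whereas pgp-12 had 77 reads in SoLo and 8 in SMARTseq. Of 9 tested, 2 were called higher and 3 lower in SoLo, against 20% and 27.6% of all genes tested. Whether these cells were in the sort was not tested.

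Of the 3 metabotropic receptor genes, mgl-2 and mgl-3 were higher in SoLo and mgl-1 was lower in SoLo. MGL-2 resembles the vertebrate metabotropic receptors that act through Gq, and MGL-1 and MGL-3 resemble those that act through Gi and Go. The gene mgl-2 lies at chromosome I, 10383144 to 10391388, minus strand. In RNA samples 1 to 4 it had 156, 131, 118 and 121 CPM with SoLo and 46.04, 28.6, 35.3 and 37.2 CPM with SMARTseq. Every SoLo library was at least 2.56 times every SMARTseq library. The log2 fold change of mgl-2 was 1.84 ± 0.19 (edgeR adjusted p = 4.61e-05), with pair values of 1.70 to 2.19. Of the mgl-2 exon bases, 14.9% are shared with maf-1 on the same strand, and how reads there were counted is not known. The level of maf-1 was 50.1 ± 10.6 CPM with SoLo and 25.5 ± 5.76 CPM with SMARTseq (SD, n = 4 each), with a log2 fold change of 0.97 ± 0.23.

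The gene mgl-3 (chromosome IV, 5439005 to 5450802, plus strand) had 127, 74.5, 94.5 and 100.6 CPM with SoLo and 67.4, 52.5, 55.3 and 60.3 CPM with SMARTseq. The kits did not overlap, but the lowest SoLo library was only 1.11 times the highest SMARTseq library. Its log2 fold change of 0.75 ± 0.19 passed the test (edgeR adjusted p = 0.0102), with SoLo higher in 4 of 4 RNA samples. It was 0.94 and not called with RNA samples 2 to 4 summed (edgeR adjusted p = 0.127). It was 0.93 and called when the replicate block was added there (edgeR adjusted p = 0.000861), a fit that called more genes than the main one. The value of mgl-3 was 0.37 after the trend of fold change on exonic length was subtracted. The median over tested genes with a known length was then 0.18.

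The gene mgl-1 (chromosome X, 9968517 to 9976306, minus strand) went the other way. Its levels were 49.05, 36.7, 52.2 and 44.4 CPM with SoLo and 139, 89.3, 94.7 and 70.3 CPM with SMARTseq. The highest SoLo library was 0.743 times the lowest SMARTseq library, and the SMARTseq library of RNA sample 1 was the highest of all 8. The log2 fold change was -1.11 ± 0.23 (edgeR adjusted p = 0.00342), with SoLo lower in 4 of 4 RNA samples. It was -0.57 and not called with library totals as the only scaling (edgeR adjusted p = 0.0628), a scaling under which the median over all genes was 0.56, against 0.01 with TMM. It was -1.12 and not called with RNA samples 2 to 4 summed (edgeR adjusted p = 0.113). It was -1.08 and called when the replicate block was added there (edgeR adjusted p = 0.000723), a fit that called more genes than the main one. Of the mgl-1 exon bases, 4.68% lie under pssy-1 and the noncoding ZC506.5 on the opposite strand and 3.28% under the noncoding ZC506.8 on the same strand. The level of pssy-1 was 30.3 ± 6.98 CPM with SoLo and 51.7 ± 12.6 CPM with SMARTseq (SD, n = 4 each). It was lower in SoLo by edgeR, at -0.77 ± 0.24 (adjusted p = 0.0242), and reads of the overlap cannot be told apart without the strand setting.

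The make-up of both receptor and transporter families differed with the kit. Among reads of the 4 glt genes, corrected for exonic length, glt-4 took 44.6% ± 7.43 in SoLo and 2.81% ± 1.62 in SMARTseq, and glt-1 took 54.4% ± 8.08 in SoLo and 95.6% ± 2.50 in SMARTseq (SD, n = 4 each). Within single libraries the per-length ratio of glt-4 to glt-1 was 0.626 to 1.29 in SoLo and 0.009 to 0.0483 in SMARTseq. Among the 3 mgl genes, mgl-2 took 41.9% to 51.4% in SoLo and 15.1% to 20.1% in SMARTseq, and mgl-1 took 18.1% ± 2.39 in SoLo and 52.4% ± 5.75 in SMARTseq. The share of mgl-3 was 36.8% ± 3.44 in SoLo and 30.4% ± 3.95 in SMARTseq, with overlapping ranges. The per-length ratio of mgl-2 to mgl-1 was 1.95 to 3.07 in SoLo and 0.276 to 0.456 in SMARTseq, so that the order of these receptors was opposite in the kits in all 8 libraries.

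**Figure D2:**
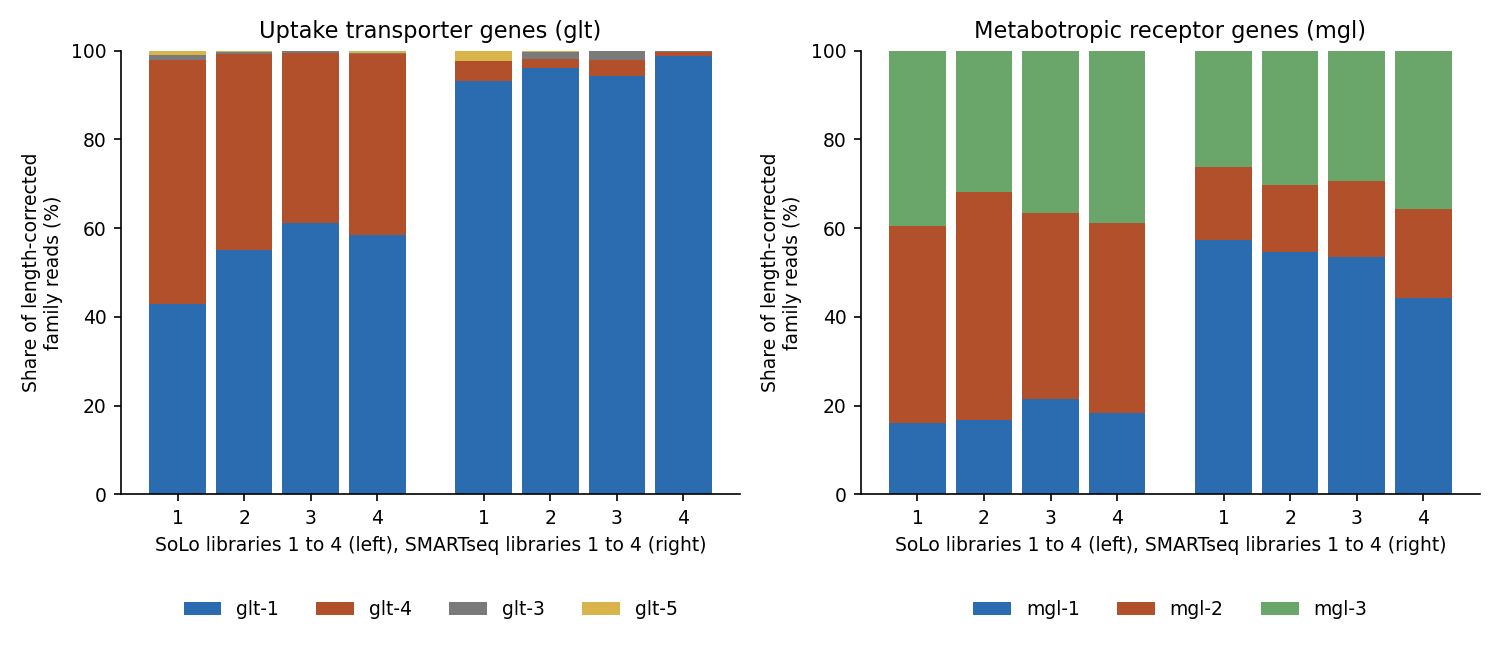
Share of the length-corrected reads of the glt family (left) and of the mgl family (right) taken by each gene, in percent, in SoLo libraries 1 to 4 and SMARTseq libraries 1 to 4. In SoLo glt-4 takes 38.3% to 55.1% of the glt reads and mgl-2 is the largest mgl share, whereas in SMARTseq glt-4 takes 0.890% to 4.498% and mgl-1 is the largest mgl share.

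Ranked by level per kilobase of exon, eat-4 had the highest mean in both kits, with 103.5 ± 11.8 CPM per kilobase in SoLo and 54.4 ± 15.2 in SMARTseq (SD, n = 4 each). In SoLo its range lay above that of all other members. The next places in SoLo were held by glt-1 (44.2), glt-4 (36.1), mgl-2 (35.4) and mgl-3 (29.2 CPM per kilobase), and each of these neighbours overlapped the next. The level of mgl-1 in SoLo, 14.2 CPM per kilobase, lay below the range of mgl-3. In SMARTseq the ranges of eat-4, glt-1 (39.1) and mgl-1 (30.7 CPM per kilobase) overlapped from one to the next, and eat-4 was above glt-1 in 2 of 4 libraries. Below them in SMARTseq, mgl-3 (15.4 to 19.8), mgl-2 (7.695 to 12.4) and glt-4 (0.506 to 1.77 CPM per kilobase) were each separate from the neighbour above. The range of glt-4 in SMARTseq overlapped that of glt-3 (0.398 CPM per kilobase), though glt-4 was above it in all 4 libraries, and glt-5 was last in both kits. With the longest transcript as the length, mgl-2 and glt-4 changed places in SoLo, where their ranges overlap.

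The 4 genes called higher in SoLo and the 1 called lower were not uniform across RNA samples. RNA sample 1 had the highest level of eat-4, mgl-2 and mgl-3 in both kits, being 1.24, 1.27 and 1.42 times the mean of RNA samples 2 to 4 in SoLo and 1.6, 1.37 and 1.2 times in SMARTseq. For mgl-1 it was the highest in SMARTseq (1.64 times) and within the range of the others in SoLo. For glt-4 it was the highest in SoLo (1.38 times) and within the range of the others in SMARTseq. In contrast glt-1 was 0.749 times the mean of the others in SoLo and 0.496 times in SMARTseq. Of 8 marker sums, 4 were highest in RNA sample 1 in both kits and 3 were lowest there in both. Those highest were the pan-neuronal sum (15100 CPM with SoLo and 10400 CPM with SMARTseq), the intestine sum (484 CPM with SoLo and 236 CPM with SMARTseq), the excretory canal sum (323 CPM with SoLo and 537 CPM with SMARTseq) and the pharynx sum (283 CPM with SoLo and 99.4 CPM with SMARTseq). The pharynx sum with SMARTseq was only barely highest, with 98.3 CPM in RNA sample 4. The largest member of the pan-neuronal sum was egl-3, with 6510 ± 1650 CPM with SoLo and 4650 ± 1290 CPM with SMARTseq (SD, n = 4 each). How far the higher pan-neuronal sum in RNA sample 1 rests on this gene was not tested. Those lowest were the muscle sum (7460 CPM with SoLo and 14400 CPM with SMARTseq), the hypodermis sum (152 CPM with SoLo and 339 CPM with SMARTseq) and the germline sum (628 CPM with SoLo and 307 CPM with SMARTseq). The glia sum was highest there with SoLo and lowest there with SMARTseq, with the glial gene ver-1 at 0 in both kits and mir-228 at 0 in SMARTseq. These are descriptions of 1 RNA sample, and the part of the marker differences in them was not tested.

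**Figure D3:**
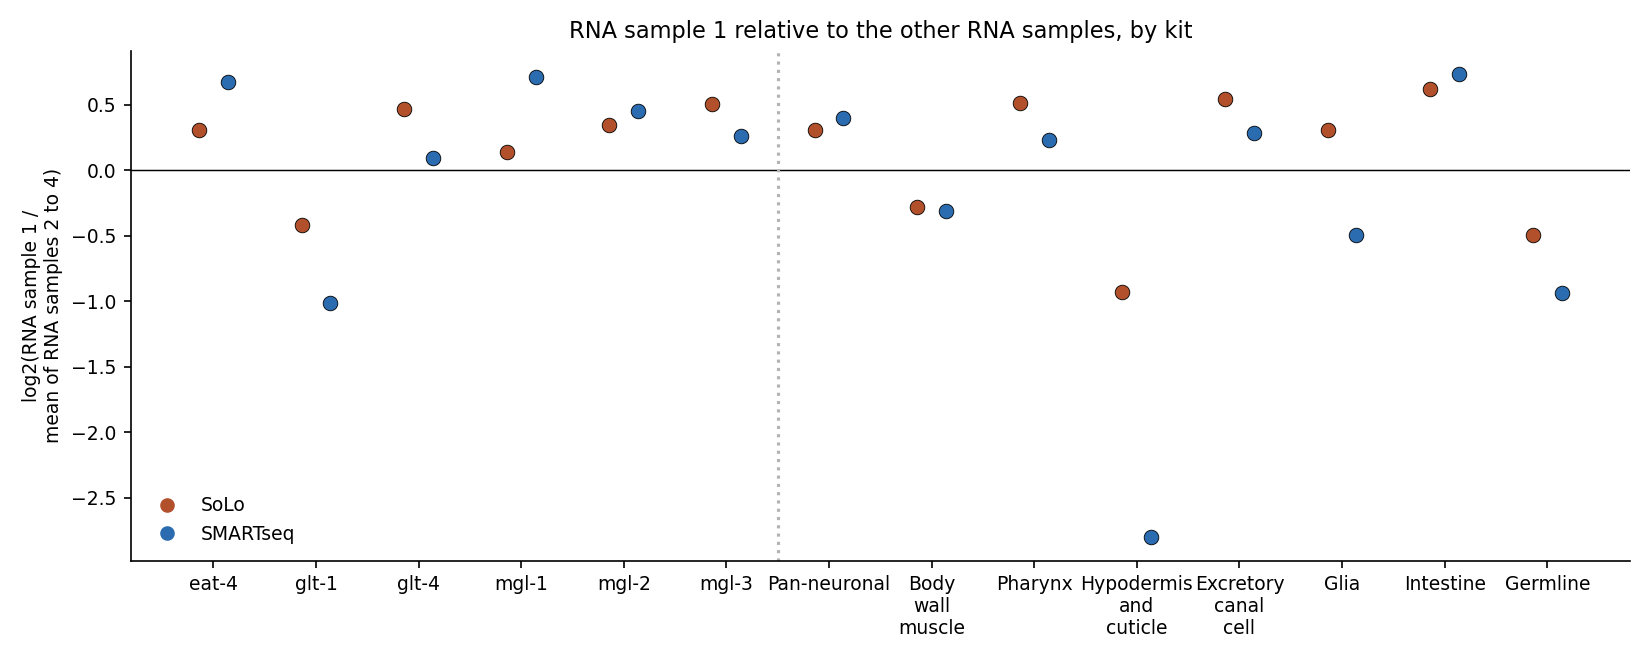
Log2 ratio (y axis) of RNA sample 1 to the mean of RNA samples 2 to 4 within each kit, for the 6 tested genes and, right of the dotted line, for the summed markers of 8 cell types or tissues. Both points of glt-1 lie below 0, at ratios of 0.749 (SoLo) and 0.496 (SMARTseq), as do those of muscle, hypodermis and germline. Those of the other 5 genes and of the neuron, pharynx, excretory canal and intestine sums lie above 0.

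Genes that act beside these 8 were counted in 8 lists, 1 of which, the transporter genes glt-6 and glt-7, had no gene with enough reads to be tested. The counts of each list stand beside 20% of all tested genes called higher and 27.6% called lower in SoLo. These shares are of the main fit, with 2276 genes higher and 3139 lower. The replicate block called 3290 higher and 3664 lower of 11378 genes. Without RNA sample 1, 3005 were higher and 3691 lower of 11479. List counts rise under these settings beside more calls over all genes. Of 10 ionotropic glutamate receptor genes tested, 1 was higher and 7 were lower in SoLo, with a median log2 fold change of -1.28 against 0.01 over all genes. The only one higher was glr-4, with 0.88 ± 0.25 (edgeR adjusted p = 0.017), and the farthest down was glr-8 with -2.92 ± 0.34. The most abundant per kilobase, glr-5, had 159 ± 31.4 CPM with SoLo and 321 ± 93.3 CPM with SMARTseq (SD, n = 4 each), and 2 (glr-2 and glr-7) were not called. Of 5 tested glutamate-gated chloride channel genes, which carry inhibitory responses to glutamate, 1 was higher in SoLo (avr-14, 0.72 ± 0.13) and 1 lower (avr-15, -1.997 ± 0.296). With the replicate block 2 were higher, and without RNA sample 1, a setting chosen after seeing the data, 3 were.

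Of 13 tested genes for proteins that assist ionotropic receptors, 2 were higher and 4 lower in SoLo, a share called that was near the 47.6% over all genes. With the replicate block, and likewise without RNA sample 1, 4 were higher and 6 lower, but both settings also called more genes over the whole table. Those higher were the kinesin gene klp-4, with 1.2 ± 0.17 (edgeR adjusted p = 0.000355), and wdr-48. Those lower were the stargazin-like genes stg-1 (-2.49 ± 0.23) and stg-2, the auxiliary subunit gene sol-1 and the deubiquitinase gene usp-46. The most abundant per kilobase, the CaMKII gene unc-43, had 895 ± 62.3 CPM with SoLo and 1130 ± 150.0 CPM with SMARTseq (SD, n = 4 each) and was not called (edgeR adjusted p = 0.0605).

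Of 13 tested genes for enzymes that make and use glutamate, 1 was higher in SoLo and 3 were lower, against 20% and 27.6% of all genes tested. With the replicate block, and likewise without RNA sample 1, 2 were higher, but both settings also called more genes over the whole table. The glutamate dehydrogenase gene gdh-1 was higher, with 0.76 ± 0.16 (edgeR adjusted p = 0.00334). The genes lower in SoLo were gln-2, a glutamine synthetase with 1.49 ± 0.646 CPM with SoLo and 29.2 ± 8.11 CPM with SMARTseq (SD, n = 4 each), the glutaminase gene glna-3 (-1.75 ± 0.15) and the aspartate aminotransferase gene got-2.1 (-0.96 ± 0.355). The most abundant per kilobase by the mean of both kits, though not in SoLo alone, was got-1.2. It differed by 0.16 ± 0.23 and was not called (edgeR adjusted p = 0.598). Of 7 tested relatives of eat-4 in the SLC17 transporter family, 0 were higher in SoLo by edgeR, with 0 at an unadjusted p under 0.05 and 1 called by DESeq2, which tested more genes, and 2 were lower, slc-17.1 (-2.79 ± 0.13) and slc-17.4 (-0.77 ± 0.25).

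G protein genes through which the MGL receptors could signal also went both ways. Of 13 tested subunits, regulators and effectors, 7 were higher and 4 lower in SoLo, against 20% and 27.6% of all genes tested. Their median was 0.63. The RGS gene egl-10, a negative regulator of Go signalling, was farthest up with 257 ± 14.7 CPM with SoLo and 14.9 ± 4.85 CPM with SMARTseq (SD, n = 4 each). The Gs alpha gene gsa-1 was farthest down with -2.14 ± 0.13. It was the most abundant per kilobase by the mean of both kits, though not in SoLo alone. The Go alpha gene goa-1 had 0.97 ± 0.16 and the Gq alpha gene egl-30 -2.03 ± 0.13, and these 2 were named after their values were seen. Of the other class C receptor genes, the GABA-B subunit gene gbb-1 was higher in SoLo (2.72 ± 0.22) and its partner gbb-2 lower (-3.40 ± 0.13).

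**Figure D4:**
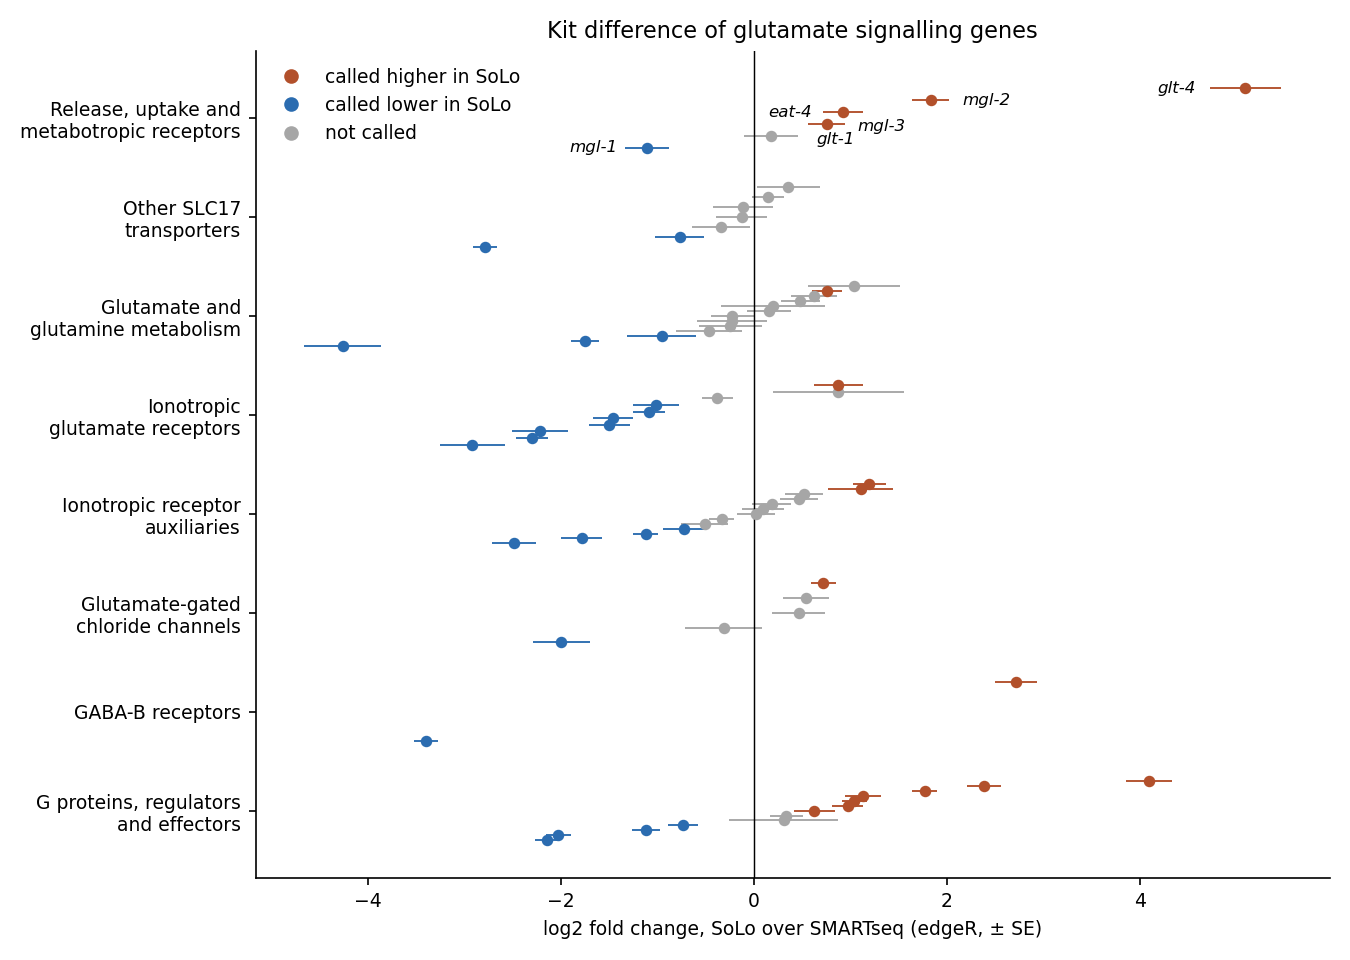
Log2 fold change of SoLo over SMARTseq (x axis, edgeR, bars are ± SE) for the 6 tested genes of glutamate release, uptake and metabotropic reception (top, named) and for tested genes of 7 lists of related genes. In the top group glt-4 lies at 5.10 and mgl-1 at -1.11, and 7 of the 10 ionotropic receptor genes lie to the left as called lower in SoLo.

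The profile of eat-4 over the 8 libraries was most like those of R11.2, bet-2 and C33A11.1, with root mean square differences of centred log2(CPM + 1) of 0.0603, 0.0691 and 0.0706. That of glt-4 was most like K09E9.5 (0.196), the muscle twitchin gene unc-22 (0.306) and Y39G10AR.11 (0.31). Like glt-4 these had a high level in SoLo and a low one in SMARTseq, for example 148 CPM with SoLo and 4.09 CPM with SMARTseq for unc-22. This likeness is over 8 libraries that share 4 RNA samples.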

How the data were processed

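The authors deposited a table of raw gene counts with 1 column for each of 8 libraries. The submitters' processing notes name STAR, SAMtools, featureCounts and WBcel235. Not given in the sources used here: versions, annotation release, strand setting, and how multiply aligned reads and molecular identifiers were handled. Without these, reads of overlapping genes cannot be assigned with certainty. The table held 0 columns of unlisted samples.

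The kits were compared on the deposited counts with edgeR 4.0.16 (R 4.3.3): TMM, filterByExpr by kit, quasi-likelihood test on all 8 libraries without a replicate block, Benjamini-Hochberg over 11378 genes, called under 0.05. SE was approximated as |log2 fold change| divided by sqrt(F). CPM used effective library sizes from TMM. Positions, exonic lengths (union of exons) and overlaps came from Ensembl release 115 of WBcel235, matched by name. The numbers pair the libraries: each RNA sample was divided between kits, per the labels. Deviations from kit means correlated at 0.322 to 0.758 in same-numbered pairs over 11378 genes, with 0.758 for RNA sample 1. Among RNA samples 2 to 4, same-numbered pairs gave 0.322 to 0.367 and differently numbered pairs 0.182 to 0.341. These ranges overlap, so the correlations do not settle the pairing of RNA samples 2 to 4, which rests on the labels. Neighbours in the order of levels were called separate where their ranges did not overlap. DESeq2 1.42.0, other filters and scalings, the block, left-out libraries, summed RNA samples and a length trend (lowess) were tried.

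The members and gene lists were chosen with earlier results of these data known. All members were named. In each list the called gene farthest in each direction and the most abundant per kilobase, by mean over both kits, were named by rule. Other list genes were named after their values were seen.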

Additional observations from a re-analysis of the deposited data

Results flagged for a closer look

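Of 16 groups of 4 libraries (8 genes in each kit), 2 held a library far from the rest, where chance gives about 1 in 20. The level of eat-4 in SoLo library 1 was 268.6 CPM, against 214.9 to 219.6 CPM in SoLo libraries 2 to 4. The level of glt-4 in the same library was 145.2 CPM, against 101.6 to 108.2 CPM in the others. Without SoLo library 1 the log2 fold change was 0.88 for eat-4 and 5.0 for glt-4, and both stayed called.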

How the results depend on the processing

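With the RNA sample number as a replicate block, the log2 fold changes were 0.96 for eat-4, 0.24 for glt-1, 5.11 for glt-4, -1.08 for mgl-1, 1.84 for mgl-2 and 0.74 for mgl-3, and the block changed no call among these genes. DESeq2, no low-count filter and a stricter filter also changed none. Over all genes the block called 3290 higher and 3664 lower in SoLo, against 2276 and 3139 in the main fit. Without any low-count filter, glt-3 and glt-5 were tested and not called. Leaving out each library gave 0.776 to 1.1027 for eat-4, -0.0492 to 0.357 for glt-1, 4.85 to 5.48 for glt-4, -1.28 to -0.93 for mgl-1, 1.70 to 1.94 for mgl-2 and 0.65 to 0.91 for mgl-3. With RNA samples 2 to 4 summed, 490 genes were called higher and 851 lower in SoLo, against 2276 and 3139, from 2 libraries a kit. Of the genes described, 2 were then higher and 0 lower, since eat-4 (0.97), mgl-3 (0.94) and mgl-1 (-1.12) were no longer called. All 3 had an unadjusted p under 0.05 there, mgl-1 with 0.0254. With the replicate block added there, 3310 genes were higher and 3758 lower, and the genes described gave 4 higher and 1 lower again. That fit, on 2 libraries a kit, called more genes than the main fit, so the calls that returned are not a stricter check. With library totals as the only scaling, 4318 genes were called higher in SoLo, 64.4% of calls against 42.03%, and 0 of the genes described were lower, mgl-1 being at -0.57. The unadjusted p of mgl-1 by edgeR was then 0.0385. DESeq2 called mgl-1 lower at -1.01, but with its own scaling, so it does not bear on the result with library totals. With the length trend subtracted, mgl-1 was -1.45, mgl-2 1.40 and mgl-3 0.37, where the median over tested genes with a known length was 0.18. With the trend and the block, glt-4 was 4.69, mgl-1 -1.50, mgl-2 1.32 and mgl-3 0.28. The cause of these changes was not tested. Depth limits glt-3 and glt-5 in both kits and glt-4 in SMARTseq.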

Other observations

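Other plasma membrane glutamate transporter genes, glt-6 and glt-7, both known from the excretory canal cell, had too few reads for the test. By RNA sample, glt-6 had 10, 3, 5 and 5 reads in SoLo and 3, 3, 2 and 2 reads in SMARTseq, a ratio of summed reads per effective library of 3.33 with an exact counting interval of 1.53 to 7.85. In contrast glt-7 had 0, 0, 1 and 1 reads in SoLo and 0, 7, 12 and 12 reads in SMARTseq, a ratio of 0.0935 (0.0108 to 0.368). In neither kit did RNA sample 1 have a read of glt-7. The eat-4 relative slc-17.6 had 6, 4, 8 and 3 reads in SoLo against 0 in every SMARTseq library. With a floor of 3 counts over the 4 SMARTseq libraries the ratio is 10.1, which is no lower limit, since the 21 SoLo reads are taken as exact. The other untested relatives went both ways. With SoLo and SMARTseq respectively, vglu-3 had 8 and 19 reads, slc-17.3 had 4 and 3, slc-17.8 had 6 and 5, and slc-17.9 had 7 and 31. The intervals of glt-6 and glt-7 cover counting error, and the floor of slc-17.6 covers that of its SMARTseq count only. Neither covers the spread between RNA samples.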
